A study of Mus musculus with 16 samples.

Results

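H19 and Igf2 are neighbouring imprinted genes on distal mouse chromosome 7. Their locus was taken as the window from 149740000 to 149875000 of chromosome 7 (NCBI37/mm9), with H19 at about 149761000 to 149764000 and Igf2 at about 149836000 to 149853000. The window held 4 of the 56941 regions obtained by merging the peaks of histone H3 lysine 27 acetylation (H3K27Ac) of 15 animals. The locus was picked with earlier results of these data known, its regions were then taken by position, and all 4 are described.

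H3K27Ac marks active promoters and enhancers. It was profiled by chromatin immunoprecipitation and sequencing in 5 WT livers (Mdr2-WT, strain FVB.129P2, 14 to 19 months of age), 5 inflamed livers (Mdr2-KO, strain FVB.129P2-Abcb4tm1Bor/J, 7 to 8 months) and 5 HCC nodules (Mdr2-KO, same strain, 14 to 19 months), with 1 animal per library. The strain of WT animals is given here as in the labels, whereas the methods of the study name FVB/NJ for them. All animals received clodronate liposomes at 50 μg per g of body weight for 48 h, which deplete liver macrophages. Mdr2 (Abcb4) encodes the phosphatidylcholine transporter of hepatocytes. It was absent from every cell of the knockout animals, so inflamed livers and nodules share the genotype and differ in age and lesion, while WT livers match the nodules in age. Each nodule library is tissue of a single animal, and both sexes were used without the sex of each animal being given.

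H19 is a long noncoding RNA expressed from the maternal chromosome, and Igf2 encodes insulin-like growth factor 2, a fetal growth factor expressed from the paternal chromosome. A control region between the genes, bound by the insulator protein CTCF when unmethylated, decides which of them can use the enhancers that lie downstream of H19. Both genes are highly expressed in fetal liver and are shut down after birth, and their return in liver tumors is well known. The peaks do not separate the parental chromosomes, and in bulk tissue more cells with the mark and more mark per cell cannot be told apart.

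Both genes are transcribed toward lower coordinates, and "downstream of H19" therefore means below it on the chromosome. In the RefSeq annotation (GRCm38.p6) the nearest genes below H19 are the noncoding RNA Nctc1 and Mrpl23, a mitochondrial ribosomal protein gene. Ordered by their lower ends, its antisense transcript Igf2os, Ins2, an insulin gene, and Th, the tyrosine hydroxylase gene, come after Igf2. Whether Igf2os overlaps Igf2 was not examined. Igf2 has 4 annotated starts in this table. Their promoters are shown because acetylation of the Igf2 gene was found in nodules. Each runs from 250 bases before to 50 bases after the start, 5′ to 3′, with CG dinucleotides, the sites of DNA methylation, in capitals and with GRCm38.p6 coordinates.
Igf2 start 1, chr7:142666767-142667066, minus strand: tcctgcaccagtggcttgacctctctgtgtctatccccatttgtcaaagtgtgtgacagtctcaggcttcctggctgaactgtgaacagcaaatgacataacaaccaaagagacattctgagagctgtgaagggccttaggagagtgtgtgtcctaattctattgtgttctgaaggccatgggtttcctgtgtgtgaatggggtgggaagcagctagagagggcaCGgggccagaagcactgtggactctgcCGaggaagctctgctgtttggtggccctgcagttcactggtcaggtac
Igf2 start 2, chr7:142661222-142661521, minus strand: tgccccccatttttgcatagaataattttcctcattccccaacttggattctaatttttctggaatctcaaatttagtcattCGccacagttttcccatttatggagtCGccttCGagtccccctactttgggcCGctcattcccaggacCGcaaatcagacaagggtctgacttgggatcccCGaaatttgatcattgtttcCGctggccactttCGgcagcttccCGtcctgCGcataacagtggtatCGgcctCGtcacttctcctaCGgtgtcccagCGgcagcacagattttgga
Igf2 start 3, chr7:142658755-142659054, minus strand: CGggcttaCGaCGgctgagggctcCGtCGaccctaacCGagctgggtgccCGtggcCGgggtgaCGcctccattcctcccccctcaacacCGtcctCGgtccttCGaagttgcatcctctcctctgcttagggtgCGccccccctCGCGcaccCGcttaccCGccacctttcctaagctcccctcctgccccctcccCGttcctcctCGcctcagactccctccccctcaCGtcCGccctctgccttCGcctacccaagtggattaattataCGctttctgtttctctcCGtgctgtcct
Igf2 start 4, chr7:142657447-142657746, minus strand: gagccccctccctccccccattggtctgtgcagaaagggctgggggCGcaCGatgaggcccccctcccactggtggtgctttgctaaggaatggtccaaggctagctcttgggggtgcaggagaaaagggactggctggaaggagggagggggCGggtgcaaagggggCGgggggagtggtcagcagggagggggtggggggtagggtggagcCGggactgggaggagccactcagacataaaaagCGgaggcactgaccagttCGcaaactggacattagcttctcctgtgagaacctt
The promoters hold 2, 14, 24 and 7 CG dinucleotides in this order, against a median of 7 over 32851 mouse promoters of the same length. Start 3 is the most CG-rich of the 4, and 19.98% of all promoters have at least as many. The letters ATAAAA, searched on the strand shown, occur only at start 4, 12 bases before its start. Of all promoters, 11.1% hold them on the same strand and 18.5% on either strand. H19 itself has no entry in the table.

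Each gene also hosts a microRNA, shown because some nodules had peaks over all or part of the gene that carries it. H19 RNA is the precursor of miR-675, and miR-483 lies within Igf2. In the mature sequences from RefSeq (GRCm38.p6) the seed, bases 2 to 8, is in capitals.
mmu-miR-675-3p: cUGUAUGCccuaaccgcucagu
mmu-miR-675-5p: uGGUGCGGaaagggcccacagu
mmu-miR-483-3p: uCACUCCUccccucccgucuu
mmu-miR-483-5p: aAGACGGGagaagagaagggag
None of the 4 seeds is shared with another mature miRNA of the table.

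Lists held 26375 to 42736 peaks on chromosomes 1 to 19 and X and covered 92.5 to 175 Mb. No read counts were used, so sequencing depth is unknown and presence or absence of a peak also depends on depth. WT animal 130748 and HCC animal 124711 stood apart from their groups and were nearest to each other (base-pair Jaccard index 0.630). In its own principal component analysis of H3K27Ac the study left out some of the samples as outliers, and its main text does not say which. All samples are kept here. No WT animal had a peak in the window. Results with and without HCC animal 124711 are given for the window and all its parts but that upstream of Igf2. Peaks at hepatocyte and macrophage marker genes were not examined, because gene positions of this build were not used here.

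No peak lay in the window in any of the 5 WT or the 5 inflamed livers, and all 5 HCC nodules had at least 1. The length under peaks was 5592 bp in HCC animal 124711, 8590 bp in 125278, 23849 bp in 125279, 33744 bp in 123390 and 60737 bp in 123206. Every nodule was thus above every other animal, and the nodules themselves differed up to 10.9-fold. The mean was 26502 ± 22302 bp in nodules and 0 bp in both other groups (SD, n = 5 each). The difference was the same against inflamed and WT livers, 26502 bp, with p = 0.00794 in both contrasts (exact permutation test, two-sided, the smallest that 5 animals against 5 allow). Adjusted over the 12145 stretches of 135000 bp of the genome that held a peak, p was 0.118 against inflamed and 0.297 against WT livers (Benjamini-Hochberg, exact permutation tests), and no stretch fell below an adjusted p of 0.05 in either contrast. Over these stretches every nodule was above every inflamed liver in 1.42%, and above every WT liver in 1.66%. Without any single WT or inflamed animal the difference was bound to stay at 26502 bp, since all of these had 0 bp. The exact permutation p was then 0.0556. Inflamed and WT livers could not be distinguished here, with 0 bp in all 10 animals.

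**Figure D1:**
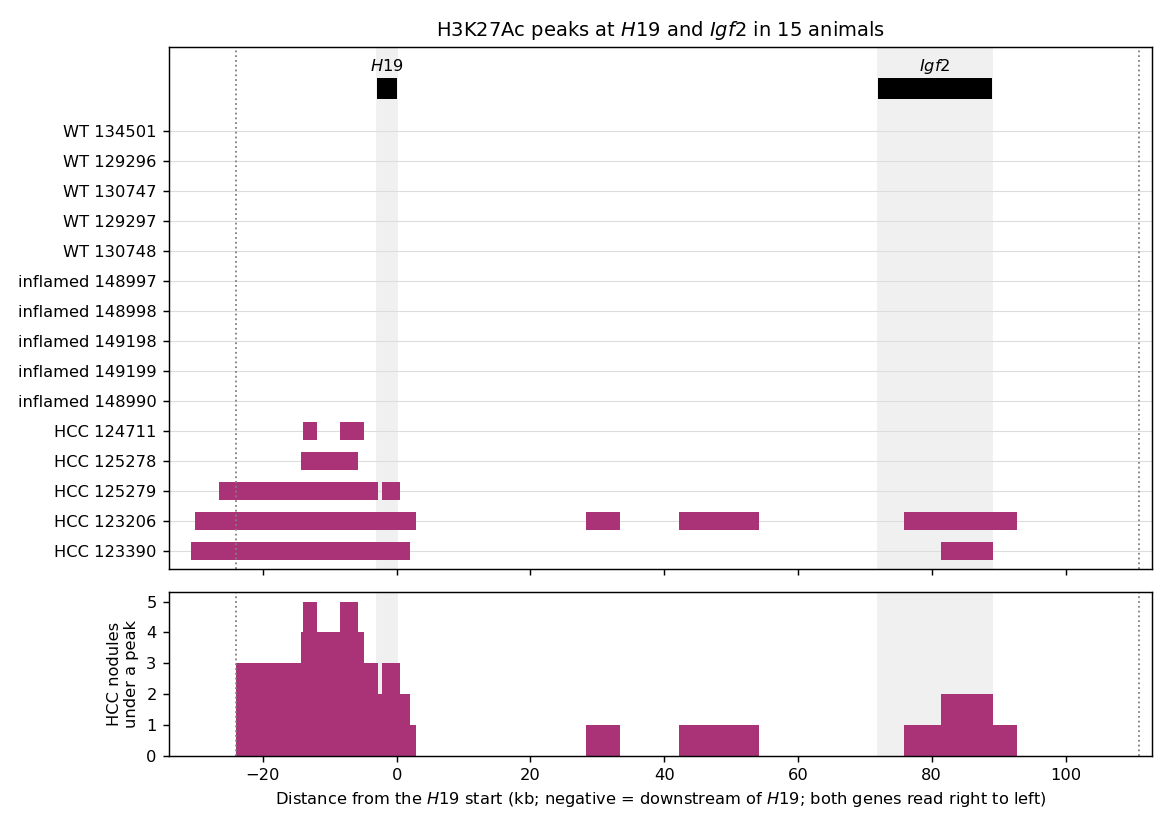
Peaks of 15 animals along the window (upper panel, 1 row per animal, bars are peaks drawn to scale) and number of HCC nodules under a peak at each base (lower panel), against the distance in kb from the H19 start at about 149764000; grey bands mark H19 and Igf2 and dotted lines the window. The 10 WT and inflamed rows are empty, all 5 nodules have peaks downstream of H19, and 2 nodules have a peak over Igf2.

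A peak in all 5 nodules and in none of the other 10 animals was found in 3 of the 12145 stretches (0.0247%). In the other two, on chromosomes 6 and 12, nodules had means of 3280 and 3458 bp under peaks, against 26502 bp at H19 and Igf2. A larger mean difference between nodules and inflamed livers was found in 1 stretch, and a larger difference between nodules and WT livers in 21. The place of the locus in this ranking is a description.

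**Figure D2:**
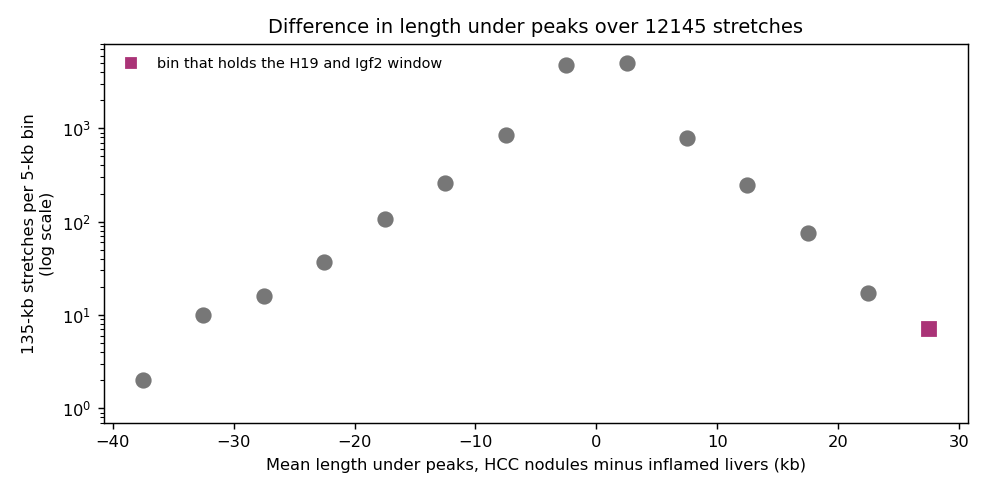
Mean length under peaks in HCC nodules minus inflamed livers (x axis, kb) for 12145 stretches of 135000 bp, counted in bins of 5 kb (y axis, number of stretches, log scale); each point is a bin. The square marks the highest bin, which holds the H19 and Igf2 window and 7 stretches in all.

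The acetylation shared by all nodules lay downstream of H19, on the side of the enhancers that serve both genes in endodermal tissue. Of the 21000 bp between the lower end of the window and H19, peaks covered 5592 bp in HCC animal 124711, 8590 bp in 125278 and all 21000 bp in each of 125279, 123206 and 123390. The mean was 15436 ± 7692 bp in nodules (SD, n = 5) and 0 bp in each other group. No nodule overlapped the other animals (exact permutation tests, two-sided, p = 0.00794 in both contrasts). Adjusted over 43430 stretches of this length, p was 0.142 against inflamed and 0.380 against WT livers (exact permutation tests). In 1.37% of these stretches every nodule was above every inflamed liver, and in 1.06% above every WT liver.

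A pair of short segments was under a peak in all 5 nodules, 4754 bp in total. The first ran from 149750066 to 149752117, which is 13.9 to 11.9 kb downstream of the H19 start, and the second from 149755584 to 149758285, 8.42 to 5.71 kb downstream of it. Between these segments 4 nodules carried a peak and HCC animal 124711 did not. At least 3 nodules were under a peak over 23849 bp of the window, and 55.0% of the window was under a peak in none. Because the gene ends are known here only to about 1 kb, distances from H19 and Igf2 and lengths counted within each part carry the same uncertainty.

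**Figure D3:**
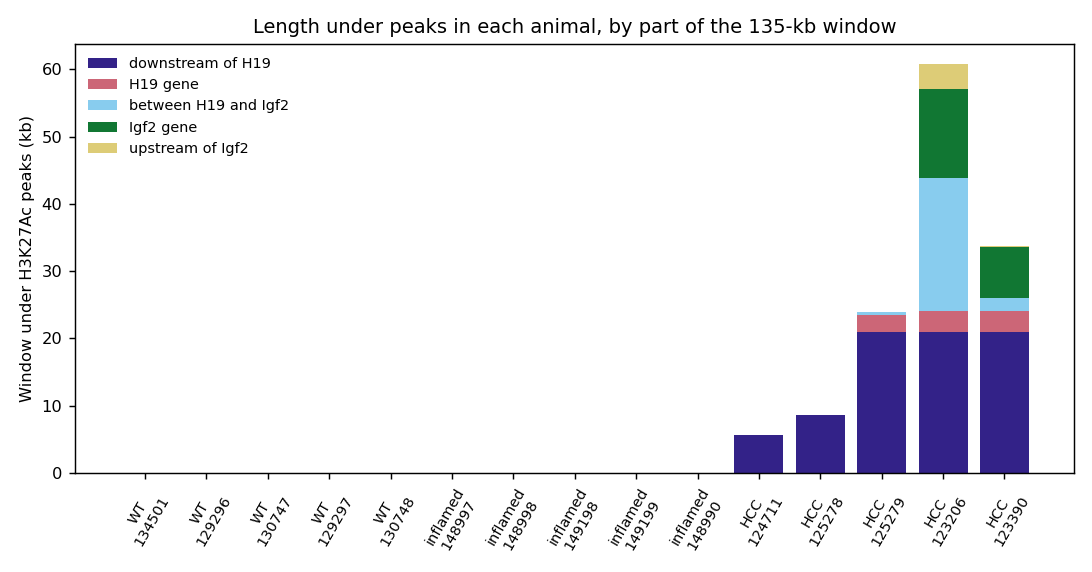
Length of the window under H3K27Ac peaks in kb (bar height) for each of the 15 animals, split by part of the window (colors). The 5 nodules reach 5592 to 60737 bp, HCC animals 124711 and 125278 have peaks downstream of H19 only, and the 10 WT and inflamed animals are at 0.

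The H19 gene itself was acetylated in 3 of 5 nodules. Peaks covered 2428 bp of its 3000 bp in HCC animal 125279 and the whole gene in 123206 and 123390, and they covered 0 bp in 124711 and 125278. In 125279 a gap of 572 bp near the 3′ end of the gene separated the downstream peak from a peak of 2592 bp over its start. The mean of 1686 ± 1556 bp in nodules against 0 bp in each other group (SD, n = 5) did not pass the test (exact permutation tests, two-sided, p = 0.167 in both contrasts; adjusted over 149280 stretches of 3000 bp, p = 0.759 for the contrast with inflamed and 0.952 for that with WT livers). Without HCC animal 124711 or 125278, each of which lacks an H19 gene peak, the difference was 2107 bp against either group (exact permutation tests, p = 0.0476, 4 nodules against 5 animals). This lower p came with an unequal split after a nodule at 0 bp was dropped, so no conclusion is drawn from it. Without HCC animal 124711 and WT animal 130748, 4 nodules against 4 WT livers gave p = 0.143 (exact permutation test) for the same difference.

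Igf2 was acetylated in 2 nodules, and both also had peaks over the whole H19 gene. Peaks covered 13160 bp of the 17000 bp in HCC animal 123206 and 7579 bp in 123390, and 0 bp in the other 3 nodules. The peak of 123206 reached from 13.2 kb inside the gene to 3.68 kb upstream of its first start, and that of 123390 from 7.58 kb inside to 0.219 kb upstream. By the approximate gene ends both peaks covered the 5′ end of the gene. For 123390 the 0.219 kb beyond that end is less than the uncertainty of about 1 kb. In GRCm38.p6 starts 2, 3 and 4 printed above lie 5.54, 8.01 and 9.32 kb inside the gene. The peak of 123206 reached farther into the gene than all of these distances, and that of 123390 farther than the first of them only. Its shortfall to start 3 is within the same uncertainty of about 1 kb. Which start lay under which peak was not determined, because peaks and starts are in different builds. The mean was 4148 ± 6013 bp in nodules and 0 bp in each other group (SD, n = 5). This difference did not pass the test (exact permutation tests, two-sided, p = 0.444 in both contrasts). Adjusted over 49432 stretches of 17000 bp, p was 0.889 against inflamed and 0.986 against WT livers (exact permutation tests). Without 123206 the difference was 1895 bp.

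Between the genes, where the imprinting control region lies close to H19, peaks covered 421 bp in HCC animal 125279, 1946 bp in 123390 and 19894 bp in 123206. In 125279 and 123390 this was the continuation of the H19 peak across its start, 0.421 and 1.95 kb upstream of it, and in 123206 the H19 peak reached 2.94 kb upstream. HCC animal 123206 alone had separate intergenic peaks, of 5047 bp from 149792341 to 149797387 and of 11903 bp from 149806263 to 149818165. The mean of 4452 ± 8669 bp (SD, n = 5) did not pass the test (exact permutation tests, two-sided, p = 0.167 in both contrasts). Adjusted over 19236 stretches of 72000 bp, p was 0.553 against inflamed and 0.667 against WT livers (exact permutation tests). The mean was 592 bp without 123206, and 5565 bp without 124711 or 125278 (exact permutation tests, p = 0.0476, 4 nodules against 5 animals). Both of these nodules are at 0 bp here and the split is unequal, so no conclusion is drawn from that p. Without HCC animal 124711 and WT animal 130748, 4 nodules against 4 WT livers gave p = 0.143 (exact permutation test). Upstream of Igf2, on the side of Ins2, only the ends of the Igf2 peaks were found, 3683 bp in 123206 and 219 bp in 123390 (mean 780 ± 1625 bp, SD, n = 5; exact permutation tests, two-sided, p = 0.444 in both contrasts; adjusted p = 0.872 and 0.962 over 42151 stretches of 22000 bp), and without 123206 the difference was 54.8 bp.

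By merged region, the window held a long region from 149733311 to 149766944, which covers H19, its downstream side and 6690 bp below the window. It had a peak in 5 of 5 nodules and in 0 of 5 inflamed and 0 of 5 WT livers. Of all 56941 regions, 0.105% had a peak in all nodules and no inflamed liver, and 0.220% in all nodules and no WT liver. Within this region nodules had 5592, 8590, 26451, 32636 and 33087 bp under peaks. Over all regions the adjusted p was 0.177 against inflamed and 0.487 against WT livers (exact permutation tests on the length under peaks, unadjusted p = 0.00794), and 0 regions fell below 0.05 in either contrast, while 6963 and 3967 had an unadjusted p under 0.05. The other 3 regions had a peak in 2, 1 and 1 nodules and in no other animal.

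Throughout the genome, 31 regions (0.0544%) had a peak in all 5 nodules and in none of the 10 other animals, and the H19 region was the widest of them. Its width was 33634 bp, against 13573 bp for the next and a median of 4926 bp. Its mean length under peaks in nodules was 21271 bp, and the next highest was 7572 bp. The count depended on HCC animal 124711, without which 111 regions qualified, and the H19 region was again the widest. With lists cut to equal length 14 regions qualified and with the top 50% of each list by score 9, and the H19 region was among neither (alternatives chosen after seeing the data).

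Nodules also differed in how their peaks ranked by score. The peak caller's score was used to rank each peak within its own list. With depth unknown and no read counts used, this rank does not measure the amount of acetylation. The H19 peak of HCC animal 123206 shared the tied top score of 3100 (score percentile 93.0), as did its Igf2 peak, and the H19 peak of 123390 stood at percentile 89.0. In 125279 the peak downstream of H19 stood at 80.6, and the peak over the H19 start at 25.3. By the approximate gene end the former covers 257 bp at the 3′ end of H19, less than the uncertainty of about 1 kb. The peak of 125278 stood at 32.8, and those of 124711 at 24.9 and 1.64. The latter had a score of 52.7, close to the lowest deposited score of 50. The Igf2 peak of 123390 stood at 51.3. The peak downstream of H19 thus ranked high in 3 nodules and low in the other two, and the peak over the H19 start ranked high in 2 of the 3 nodules that had one. With the top 50% of each list by score, 124711 and 125278 had no peak left in the window. In 125279 the H19 gene kept only the uncertain 257 bp. The difference between nodules and inflamed livers then fell to 19758 bp (exact permutation test, p = 0.167).

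The peaks that lie downstream of H19 were among the widest of their lists in 3 nodules, and in 123206 and 123390 the same peak covers H19. They measured 33087 bp in 123206, 32636 bp in 123390 and 23859 bp in 125279, where the median peak was 3480, 3972 and 3107 bp. As wide or wider were 55 of 30110 peaks, 220 of 28749 and 158 of 42736, respectively. The separate peak over the H19 start in 125279 measured 2592 bp (width percentile 34.1). The Igf2 peak of 123206 measured 16843 bp (width percentile 98.6) and that of 123390 7798 bp (80.2). In 125278 the downstream peak of 8590 bp was at the 94.0 percentile, and in 124711 both peaks were of ordinary width (26.3 and 70.6).

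**Figure D4:**
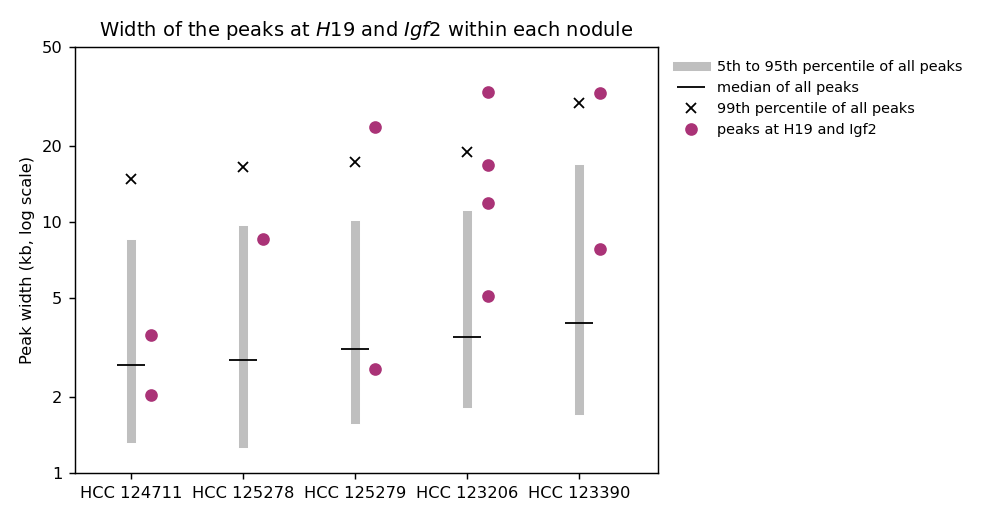
Width in kb (log scale) of each peak in the window (points) within the list of each HCC nodule; grey bars span the 5th to 95th percentile of all peaks of the list, dashes the median and crosses the 99th percentile. The widest peak of 125279, 123206 and 123390, which lies downstream of H19 and in the latter pair also over it, is above the 99th percentile, and all other peaks of the window, including that over the H19 start in 125279, are below it.

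Length under peaks in the window and length of the list did not have the same order in nodules. HCC animal 124711, with the shortest list of nodules (26683 peaks), had the least, 5592 bp. HCC animal 125279 had the longest list of nodules, with 42736 peaks, and 23849 bp of the window under peaks, whereas 123390 and 123206, with 28749 and 30110 peaks, had the most. Inflamed livers, with 35901 to 40909 peaks, had none in the window.

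The flanking sequence ordered the groups in another way. In the 135000 bp below the window all 15 animals had peaks. They covered 5480 to 10843 bp in WT livers, 25350 to 37049 bp in inflamed livers and 9114 to 27957 bp in nodules, so that inflamed livers had the most (32834 ± 4556 bp against 17460 ± 7011 bp in nodules and 7444 ± 2463 bp in WT livers, SD, n = 5 each). The mean of nodules minus that of inflamed livers was -15374 bp there (exact permutation test, two-sided, p = 0.0159, adjusted p = 0.171), and nodules were higher than WT livers by 10016 bp (exact permutation test, p = 0.0238, adjusted p = 0.434). Part of the length in nodules belongs to the H19 peaks of 125279, 123206 and 123390, which begin below the window. These peaks reach at most 6690 bp into this flank, so the flank is not separate from the locus in nodules. Inflamed livers exceeded WT livers by 25389 bp (exact permutation test, p = 0.00794, adjusted p = 0.0367), and 18% of all stretches separated every inflamed liver above every WT liver. In the 135000 bp above the window no animal had a peak. In WT and inflamed livers the stretch without a peak around H19 and Igf2 was 429 to 495 kb long, and began 39.7 to 40.6 kb downstream of the H19 start.

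The animals with acetylation of H19 and of Igf2 shared a few other regions with the same profile over the 15 animals. For H19 the 3 regions most alike in length under peaks were chr1:122031918-122034285 (Spearman's rho 1.00), chr14:61938069-61941606 (0.998) and chr19:4243035-4245500 (0.998). For Igf2 they were chr3:96603572-96606918, chr6:38783999-38787425 and chr9:121947931-121950853 (rho 1.00 each). These values describe which nodules have a peak: 29 and 33 regions were at least as alike as the last of these 3, all WT and inflamed animals are at 0 in each profile, and gene names were not assigned.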

How the data were processed

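H3K27Ac ChIP-seq of 15 animals was analysed; an IgG library of WT liver was not analysed here. Per the labels, reads were aligned with Bowtie 0.12.7 to mm9 and peaks called with MACS 1.4; the control and parameters are not given in the sources used here. The authors deposited 1 peak list per animal with position and score, and the score, on a scale not stated, was used only as a rank within its list (mid-rank percentile). Read counts were not used, so the precision of single calls is unknown.

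Members, parts and lists were chosen with earlier results of these data known. Window and approximate gene ends cut the window into 5 parts. Peaks on chromosomes 1 to 19 and X that overlapped or adjoined were merged, and an overlap of at least 1 bp counted as occupied. Length under peaks was compared by exact two-sided permutation tests over animals, for the window, its 5 parts, both flanks and all merged regions, with Benjamini-Hochberg adjustment over every stretch of the genome of the same length that held a peak, or over all merged regions. Named were H19, Igf2, every merged region of the window and the 3 regions most alike by Spearman's rho for each gene. Alternatives are given in the closing section. The test was checked on simulated lengths without zeros, so that check does not cover values like those of this window. Pathway and marker genes planned for an annotation of this build were not examined. Python 3.11.15, NumPy 2.4.6, SciPy 1.17.1 and matplotlib 3.10.9 were used.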

Additional observations from a re-analysis of the deposited data

Results flagged for a closer look

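Of 6 parts of the window, whole window included, with values that varied in nodules, 2 had a nodule far from the other 4 by Dixon's test. The cutoff is set for a chance of 1 in 20 in normally distributed values. That rate does not apply here, because several parts hold zeros and the whole window includes the other parts. HCC animal 123206 had 19894 bp under peaks between H19 and Igf2, where the next nodule had 1946 bp. The same animal had 3683 bp upstream of Igf2, where the next had 219 bp.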

How the results depend on the processing

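No paired analysis was possible because the groups are different animals without shared replicate numbers in the labels. Under the alternatives no difference changed direction. With WT and inflamed livers at 0 bp throughout the window, dropping peaks or animals could not have reversed one. The whole-window difference kept its side of an unadjusted p of 0.05 with equal lists, number of peaks, length relative to the animal's whole covered length, bins of 1000 bp and a window extended by 10000 bp. Equal lists left 125278 at 0 bp, so that not every nodule was above every other animal. The whole-window difference was then 24266 bp in both contrasts (exact permutation p = 0.0476). With the top 50% of each list by score, which leaves 3 nodules with peaks, it was 19758 bp (exact permutation p = 0.167) for nodules against inflamed and against WT livers, and 12600 bp (exact permutation p = 0.167) downstream of H19. Leaving out each animal in turn gave 17944 to 31730 bp for the whole window in both contrasts. The upper end was that without HCC animal 124711 (exact permutation p = 0.00794). Without any single inflamed or WT animal, all at 0 bp, the difference was bound to stay at 26502 bp. The exact permutation p then rose to 0.0556, with 5 nodules against 4 animals at 0. The unequal split alone does not set this value, which also depends on the low lengths of HCC animals 124711 and 125278. Downstream of H19 the range was 14046 to 17898 bp (exact permutation p at most 0.0159), the upper end again without 124711. For the H19 gene it was 1357 to 2107 bp and between the genes 592 to 5565 bp. Without HCC animal 124711 or 125278 these were 2107 and 5565 bp (exact permutation p = 0.0476). The same held without WT animal 130748 and HCC animal 124711 together against inflamed livers. The nodules left out are at 0 bp in these parts, and 4 nodules against 5 animals is again an unequal split. Against WT livers, with 4 animals in each group, the exact permutation p was 0.143 for the same differences. The single region of the window with a peak in all nodules and no inflamed or no WT liver became 0 with the top 50% of each list, with equal lists, which drop the peak of 125278, and with at least 50% of the region under peaks. It was 1 without any single animal, as leaving out an animal cannot remove a region from this count. The count of 31 regions over the genome, with alternatives chosen after seeing the data, was 14 with equal lists and 9 with the top 50%, neither holding the H19 region, 119 without WT animal 130748 and HCC animal 124711, and 31 to 111 without each animal in turn. Depth is unknown, so a weak peak missing from a list is not shown to be absent from the tissue.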
